A study of Mus musculus with 16 samples.

Results

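The genes described here are B2m, Tap1, Tap2, Tapbp, Psmb8, Psmb9, Psmb10, Nlrc5 and H2-K1, of the peptide presentation pathway of MHC class I, and Mill1. Mill1 is a class I-like gene that lies outside the MHC. H3K4me2, a histone mark of promoters and enhancers, was read in every merged peak whose annotated gene was one of these 10, in 4 sorted populations of medullary thymic epithelial cells (mTEC). The rule found 12 of 29472 peaks, belonging to 9 of 15739 annotated genes; Nlrc5 had no peak assigned to it. All cells came from the thymus of C57BL/6 mice, and no genotype or treatment distinguishes the groups in the labels. Every population was sorted as CD45- Epcam+. mTEC-I was further gated as MHCII low and Itgb4+, mTEC-II as MHCII high, mTEC-III as Ly6D+, and mTEC-IV as MHCII low, Itgb4- and L1cam+. Each population had 2 H3K4me2 libraries, and 8 whole-cell-extract samples are not analysed here. No label says that both libraries of a population were taken from separate mice, so p-values reflect only the scatter of these samples, and that scatter may be technical.

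MHC class I molecules show peptides from inside a cell to CD8 T cells. The proteasome cuts the peptides, the TAP transporter carries them into the endoplasmic reticulum, and tapasin helps to load them onto a heavy chain paired with beta-2 microglobulin. In the thymic medulla this display presents tissue antigens to developing T cells, and interferons and the transactivator NLRC5 raise many genes of the pathway in other cells.

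Coordinates of peaks are in build mm9. Peaks that covered the annotated start were those of B2m (chr2:121971029-121980321, centred in intron 1), Tap1 (chr17:34321392-34330318, intron 1), Tapbp (chr17:34055657-34059669, intron 3), Psmb8 (chr17:34332918-34336687, promoter), Psmb10 (chr8:108460051-108463361, intron 1) and H2-K1 (chr17:34132882-34139256, intron 3). The first peak of Tap2 (chr17:34340246-34343786, intron 1) and the first of Mill1 (chr7:18829740-18835232, intron 1) also covered the start. The other 4 lay away from it: 2 more near Tap2, 1 more near Mill1, and the single peak of Psmb9.

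Promoter bases are shown for 4 of the genes whose peak covered the start. Only exact letters were searched, so an element that departs from them is missed. The motifs searched include some known from interferon and NF-kappaB responses. Of these, B2m, the invariant chain of the molecule, held a match to an interferon motif and to the NF-kappaB motif. H2-K1, a variable chain, held exact matches to the NF-kappaB motif alone, which does not show that it lacks an interferon element. Tap1 and Mill1 held none of these exact matches. Their H3K4me2 differed in more pairs of populations than that of any other member with a peak over its start. Tapbp and Psmb10 held none either, and their H3K4me2 was not called across the populations by the F test below. Psmb8, with an interferon-gamma site given below, was called by it, and Tap2 had no promoter to search. Whether motifs and differences in H3K4me2 go together was not tested. The sequences are the 250 bases before the start in RefSeq, build GRCm38.p6, and capitals mark matches to the interferon-stimulated response element (ISRE) or the NF-kappaB motif.
B2m, chr2:122147437-122147686, plus strand: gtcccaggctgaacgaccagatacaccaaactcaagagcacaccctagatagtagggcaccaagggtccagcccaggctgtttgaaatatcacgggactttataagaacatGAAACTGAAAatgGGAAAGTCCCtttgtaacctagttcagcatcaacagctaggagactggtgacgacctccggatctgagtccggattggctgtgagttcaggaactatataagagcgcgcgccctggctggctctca
H2-K1, chr17:34000348-34000597, minus strand: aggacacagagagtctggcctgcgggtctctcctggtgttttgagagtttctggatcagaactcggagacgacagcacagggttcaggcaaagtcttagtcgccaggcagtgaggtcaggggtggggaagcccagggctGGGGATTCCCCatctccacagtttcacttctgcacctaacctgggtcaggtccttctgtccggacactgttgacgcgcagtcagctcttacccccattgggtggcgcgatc
Tap1, chr17:34187306-34187555, plus strand: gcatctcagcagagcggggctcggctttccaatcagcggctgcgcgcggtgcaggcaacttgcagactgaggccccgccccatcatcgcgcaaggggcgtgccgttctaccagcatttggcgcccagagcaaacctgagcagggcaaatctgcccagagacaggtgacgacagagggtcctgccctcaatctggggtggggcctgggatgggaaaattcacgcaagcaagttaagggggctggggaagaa
Mill1, chr7:18245097-18245346, plus strand: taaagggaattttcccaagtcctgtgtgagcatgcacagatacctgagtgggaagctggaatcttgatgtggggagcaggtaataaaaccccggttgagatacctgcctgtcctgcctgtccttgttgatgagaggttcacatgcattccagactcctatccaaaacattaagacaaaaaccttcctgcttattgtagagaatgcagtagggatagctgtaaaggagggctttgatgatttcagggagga

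Motifs were searched on both strands. The ISRE, searched as a pair of GAAA with 2 bases between them, began at -139 in B2m, counted from the start, and 2.98% of the 32851 promoters in the table hold it within 250 bases. An NF-kappaB match began at -126 in B2m, and a pair of overlapping matches at -111 and -110 in H2-K1, against 7.25% of promoters. The interferon-gamma site (GAS, TTCNNNGAA), found in 7.02% of promoters, occurred among the 8 members in the table at -97 of Psmb8, which encodes an immunoproteasome subunit. CCAAT, in 33.8% of promoters, was present in B2m (-53), H2-K1 (-16), Tap1 (-222), Psmb9 (-8) and Tapbp (-248 and -165). TGACGC, in 6.12%, was present in H2-K1 at -41. These matches are letters in a window and carry no measurement of a factor.

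Levels below are H3K4me2 tags per 10000000 tags of a library, summed for a gene over all its peaks. Library depth ran from 1702103.5 tags in mTEC-I replicate 2 to 15412132.5 in mTEC-II replicate 1, so 1 tag was worth between 5.88 and 0.649 units, and mTEC-I values carry the largest counting error. Differences are on the log2(value + 1) scale, the first population named minus the second, from limma with Benjamini-Hochberg adjustment over all features. A result was called at an adjusted p under 0.05. Such levels average over cells, so fewer cells with the mark and less of the mark per cell cannot be told apart. Of the genes of the gates, Itgb4 stood at 330 and 285 in mTEC-I against 216 to 242 elsewhere, Ly6d at 315 and 351 in mTEC-III against 69.2 to 114, and L1cam at 181 and 200 in mTEC-IV against 42.9 to 82.3. The MHC class II genes H2-Aa and H2-Ab1 did not follow the MHCII gates in the same way: H2-Aa stood at 457 and 432 in mTEC-I, gated as MHCII low, against 406 and 398 in mTEC-II, gated as MHCII high. H2-Ab1 stood at 586 and 543 in mTEC-I against 607 and 649 in mTEC-II, and neither gene was called between these populations. In mTEC-IV, also gated as MHCII low, H2-Aa at 241 and 242 and H2-Ab1 at 397 and 367 lay below all other libraries. All 7 epithelial markers listed (Epcam, Krt5, Krt14, Krt8, Foxn1, Cldn3 and Cldn4) had a peak, but they did not share 1 order. Krt5 ranged from 26.3 in mTEC-IV to 413 in mTEC-I. Epcam, at 1091 and 1141 against 826 to 1052, and Krt8, at 1108 and 1198 against 499 to 608, were highest in mTEC-IV. Between mTEC-I and mTEC-IV, 3 of the 7 were called higher in mTEC-I and 4 lower (15.2% and 20.5% of all genes).

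Mill1 and Tap1 carried more H3K4me2 in mTEC-I and mTEC-III than in mTEC-II and mTEC-IV, B2m carried less in mTEC-II than in mTEC-III and mTEC-IV, and H2-K1 carried more in mTEC-I than in mTEC-II and mTEC-IV. Across the 4 populations 7 of the 9 genes differed by the F test, where 54.2% of all 15738 tested genes did, and 8 of the 12 peaks, where 58.2% of all peaks did. The count for genes is 4 without mTEC-II replicate 1 and also 4 without mTEC-II replicate 2, and that for peaks is 5 without mTEC-II replicate 2. Tapbp and Psmb10 were the 2 genes not called. All 9 genes passed the filter on low values.

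**Figure D1:**
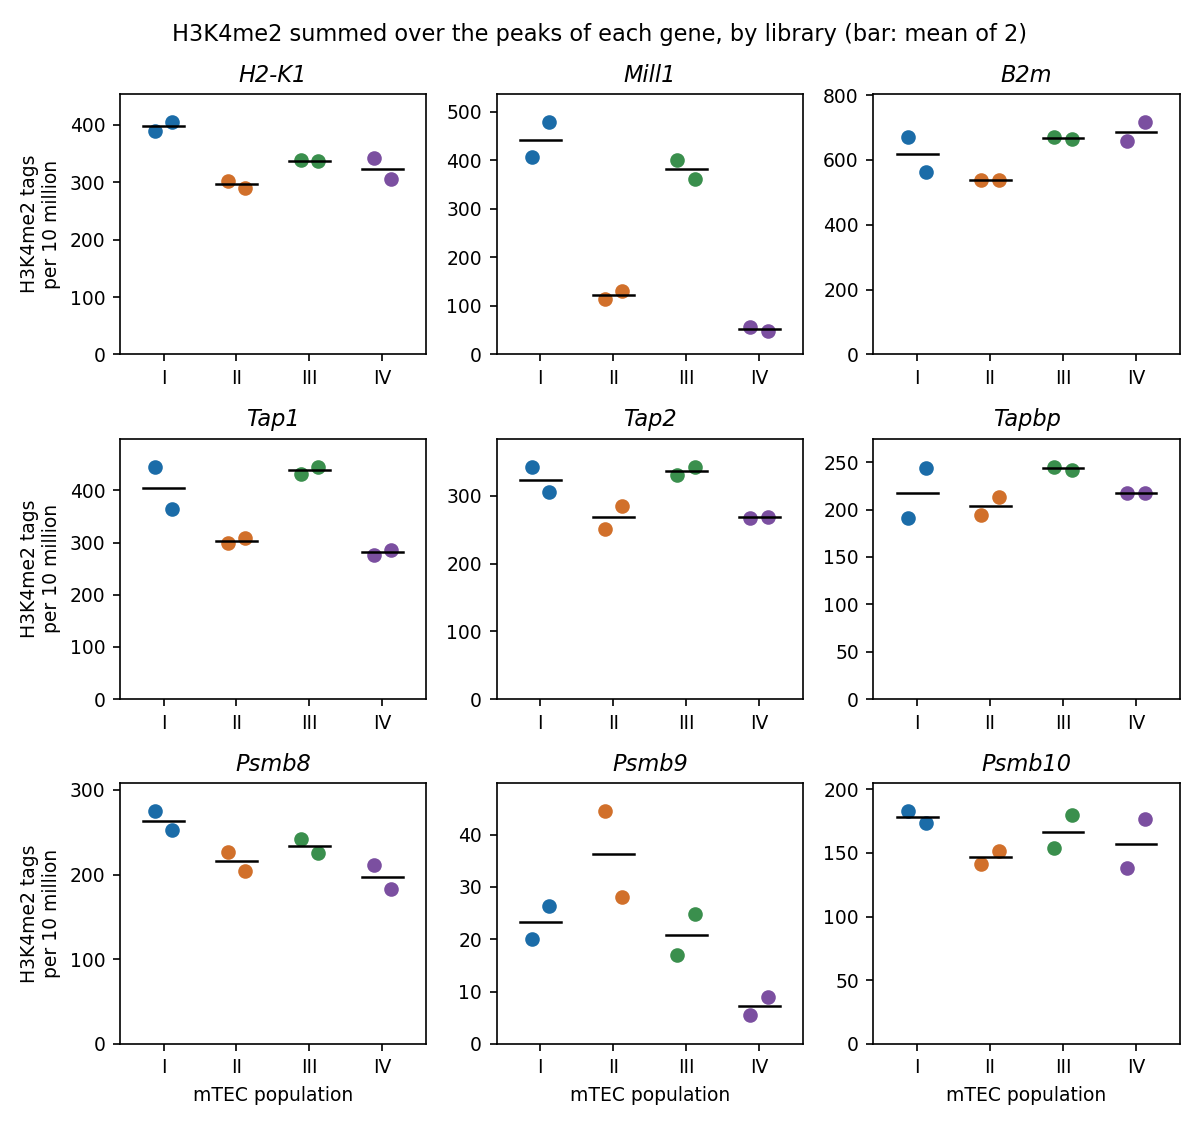
H3K4me2 tags per 10000000 (vertical axes from 0, scaled per gene) for each of the 9 genes with a peak, in the 2 libraries (points) of each mTEC population, with their mean (bar). Mill1 lies between 362 and 479 in the mTEC-I and mTEC-III libraries and between 47.8 and 130 in the others; Tapbp and Psmb10 show groups that overlap.

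The heavy chain gene H2-K1, which encodes a classical class I molecule, read 390 and 405 in the mTEC-I libraries, 302 and 290 in those of mTEC-II, 338 and 337 in those of mTEC-III and 343 and 305 in those of mTEC-IV. Both mTEC-I libraries lay above all others, both mTEC-II libraries lay lowest, and mTEC-III fell within the range of mTEC-IV. H2-K1 was higher in mTEC-I than in mTEC-II (0.42 ± 0.095 SE, limma adjusted p = 0.00429) and than in mTEC-IV (0.30 ± 0.095 SE, adjusted p = 0.0222). The first call ended without mTEC-II replicate 2 (0.39, adjusted p = 0.0673) and the second without mTEC-IV replicate 2 (0.21, adjusted p = 0.210), with DESeq2 (0.0677) or with library weights (0.0743). mTEC-I minus mTEC-III, at 0.24, was called without mTEC-I replicate 1 (0.26, adjusted p = 0.0448). H2-K1 belongs to a family of near-identical genes, and the sources used here do not give how reads shared between copies were counted, so its values are uncertain.

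Mill1, a class I-like gene of rodents that lies outside the MHC, had levels of 406 and 479 (mTEC-I), 114 and 130 (mTEC-II), 401 and 362 (mTEC-III) and 56.1 and 47.8 (mTEC-IV). The mTEC-I libraries lay highest with those of mTEC-III just below, mTEC-II was far lower, and mTEC-IV was lowest, with no overlap between populations. Mill1 was higher in mTEC-I than in mTEC-II (1.85 ± 0.14 SE, limma adjusted p = 2.5e-07) and mTEC-IV (3.07 ± 0.14, adjusted p = 2.8e-10). It was likewise higher in mTEC-III than in mTEC-II (mTEC-II minus mTEC-III -1.64, adjusted p = 2.8e-06) and mTEC-IV (2.86, adjusted p = 8.8e-10), and higher in mTEC-II than in mTEC-IV (1.22, adjusted p = 6.7e-06). mTEC-I minus mTEC-III was 0.21 ± 0.14 (adjusted p = 0.276). These 5 calls held under every alternative run, including the loss of any 1 library.

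The large range of Mill1 came from Mill1 peak 1, which covers its start. That peak reached 320 and 376 in mTEC-I libraries, 50.6 and 45.2 in mTEC-II libraries, 331 and 296 in mTEC-III libraries and 21.99 and 14.3 in mTEC-IV libraries. mTEC-I minus mTEC-IV was 4.21 ± 0.20 (adjusted p = 1.1e-07) and mTEC-III minus mTEC-IV 4.06 ± 0.20 (adjusted p = 3.1e-07). The other peak, Mill1 peak 2 at chr7:18819748-18822092 (mm9), was centred at -9776 from the start and read 86.7 and 103 in the mTEC-I libraries, 63.6 and 84.8 in those of mTEC-II, 70.0 and 65.4 in those of mTEC-III and 34.1 and 33.5 in those of mTEC-IV. By the test only mTEC-IV stood apart here, below mTEC-I by 1.46, mTEC-II by 1.10 and mTEC-III by 0.98 (adjusted p = 1.97e-04, 0.00210 and 0.00357), while mTEC-II and mTEC-III overlapped (0.12, adjusted p = 0.731). Whether the peaks of Mill1 differ in their pattern was not tested.

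B2m, the invariant light chain of class I molecules, had levels of 672 and 564 (mTEC-I), 537 and 537 (mTEC-II), 671 and 664 (mTEC-III) and 658 and 718 (mTEC-IV). Both mTEC-II libraries lay below all 6 others, the 2 mTEC-I libraries were far apart, and mTEC-III and mTEC-IV overlapped. B2m was lower in mTEC-II than in mTEC-III (-0.31 ± 0.086 SE, limma adjusted p = 0.0169) and mTEC-IV (-0.35 ± 0.086, adjusted p = 0.00589). The first call ended without any 1 of the mTEC-II or mTEC-III libraries (adjusted p = 0.117, 0.115, 0.0955 and 0.0718). The second ended without mTEC-II replicate 1 (0.0528), mTEC-II replicate 2 (0.0521) or mTEC-IV replicate 2 (-0.29, adjusted p = 0.101). mTEC-I minus mTEC-II was 0.20 (adjusted p = 0.106) and was called without mTEC-I replicate 2, the shallowest library (0.32, adjusted p = 0.00423), and by edgeR and voom (adjusted p = 0.0199 and 0.00891). Without mTEC-I replicate 1, B2m was called lower in mTEC-I than in mTEC-III (-0.24, adjusted p = 0.0212) and mTEC-IV (-0.28, adjusted p = 0.00656).

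Tap1 and Tap2 encode both subunits of the peptide transporter. Tap1 reached 446 and 364 in mTEC-I libraries, 299 and 309 in mTEC-II libraries, 431 and 446 in mTEC-III libraries and 277 and 286 in mTEC-IV libraries. Every mTEC-I and mTEC-III library lay above every mTEC-II and mTEC-IV library, and the mTEC-I libraries spanned the mTEC-III range. Tap1 was higher in mTEC-I than in mTEC-II (0.41 ± 0.10 SE, limma adjusted p = 0.00928) and mTEC-IV (0.52, adjusted p = 8.96e-04), and higher in mTEC-III than in mTEC-IV (0.64, adjusted p = 1.7e-04). mTEC-II minus mTEC-III was -0.53 (adjusted p = 0.00197). Of these 4 calls, that between mTEC-I and mTEC-II ended without mTEC-II replicate 1 (0.38, adjusted p = 0.0948) or replicate 2 (0.43, adjusted p = 0.0610). Without mTEC-I replicate 1, Tap1 was also called lower in mTEC-I than in mTEC-III (-0.27, adjusted p = 0.0359). The Psmb9 gene starts on the opposite strand 225 bases from Tap1 in RefSeq GRCm38.p6, so the Tap1 peak, which covers the Tap1 start, can hold signal of both promoters.

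Tap2, summed over its 3 peaks, read 343 and 306 in the mTEC-I libraries, 251 and 285 in those of mTEC-II, 331 and 343 in those of mTEC-III and 268 and 269 in those of mTEC-IV. The mTEC-I and mTEC-III libraries lay above all those of mTEC-II and mTEC-IV, as for Tap1. Of these differences, Tap2 passed the test for mTEC-III above mTEC-II (mTEC-II minus mTEC-III -0.33 ± 0.10 SE, limma adjusted p = 0.0316) and above mTEC-IV (0.33 ± 0.10, adjusted p = 0.0233). mTEC-I minus mTEC-II was 0.27 (adjusted p = 0.0656) and mTEC-I minus mTEC-IV 0.27 (adjusted p = 0.0562). The first call ended without any 1 of the 4 libraries of mTEC-II and mTEC-III (adjusted p = 0.318, 0.0707, 0.101 and 0.142), without either mTEC-IV library (0.0523 each) and with cyclic loess (0.0935). The second ended without any 1 of the mTEC-III or mTEC-IV libraries (adjusted p = 0.0725, 0.114, 0.107 and 0.103). The pair of differences with mTEC-I was called with edgeR (0.31, adjusted p = 0.0286, and 0.30, adjusted p = 0.0299), with voom, and without mTEC-I replicate 2 (0.36, adjusted p = 0.0165, and 0.35, adjusted p = 0.0125). That with mTEC-IV was also called with TMM (0.31, adjusted p = 0.0200), RLE (0.28, 0.0347) and cyclic loess scaling (0.26, 0.0466).

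The 3 Tap2 peaks did not share 1 order. Tap2 peak 1, over the start, had levels of 238 and 206 (mTEC-I), 170 and 193 (mTEC-II), 238 and 224 (mTEC-III) and 190 and 192 (mTEC-IV), and was not called by the F test (adjusted p = 0.0580). Tap2 peak 2, in intron 10 of 11 at chr17:34351427-34352459 (mm9), 10519 bases after the start, reached 45.7 and 47.0 in mTEC-I libraries, 21.7 and 21.1 in mTEC-II libraries, 18.3 and 19.4 in mTEC-III libraries and 8.80 and 6.57 in mTEC-IV libraries. There mTEC-I stood above all others and mTEC-IV below, with no overlap between populations, but mTEC-I replicate 2 rested on 8 tags and the mTEC-IV libraries on 8 and 5.5.

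At the intronic Tap2 peak 2, mTEC-I minus mTEC-II was 1.08 ± 0.36 SE (limma adjusted p = 0.0444), mTEC-I minus mTEC-III 1.25 (0.0194) and mTEC-I minus mTEC-IV 2.46 (2.1e-04). The last was called under every alternative run. The first ended in 10 alternatives, among them each mTEC-II library left out (1.10 and 1.06, adjusted p = 0.206 and 0.217) and the replicate number as a block (1.08, adjusted p = 0.0596), and the second without mTEC-III replicate 1 (1.21, 0.0911) or replicate 2 (1.295, 0.0683) and with library weights (0.0945). mTEC-II and mTEC-III were also above mTEC-IV there (1.38, adjusted p = 0.0116, and 1.21, adjusted p = 0.0203). Those calls ended without mTEC-IV replicate 2 (1.19, 0.0784, and 1.02, 0.111), without mTEC-II replicate 1 or 2 for the former (0.0989 and 0.0878) and without mTEC-III replicate 1 or 2 for the latter (0.0726 and 0.0844). Tap2 peak 3, intergenic at chr17:34354654-34356898 (mm9), read 58.8 and 52.9 in the mTEC-I libraries, 59.7 and 71.5 in those of mTEC-II, 74.4 and 100 in those of mTEC-III and 68.7 and 71.1 in those of mTEC-IV. Its mTEC-I libraries lay lowest and its mTEC-III libraries highest, and mTEC-I minus mTEC-III was -0.62 ± 0.21 (adjusted p = 0.0383), which ended in 9 alternatives, with mTEC-III replicate 2 left out giving -0.41 (adjusted p = 0.252); the F test did not call it (adjusted p = 0.0981).

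**Figure D2:**
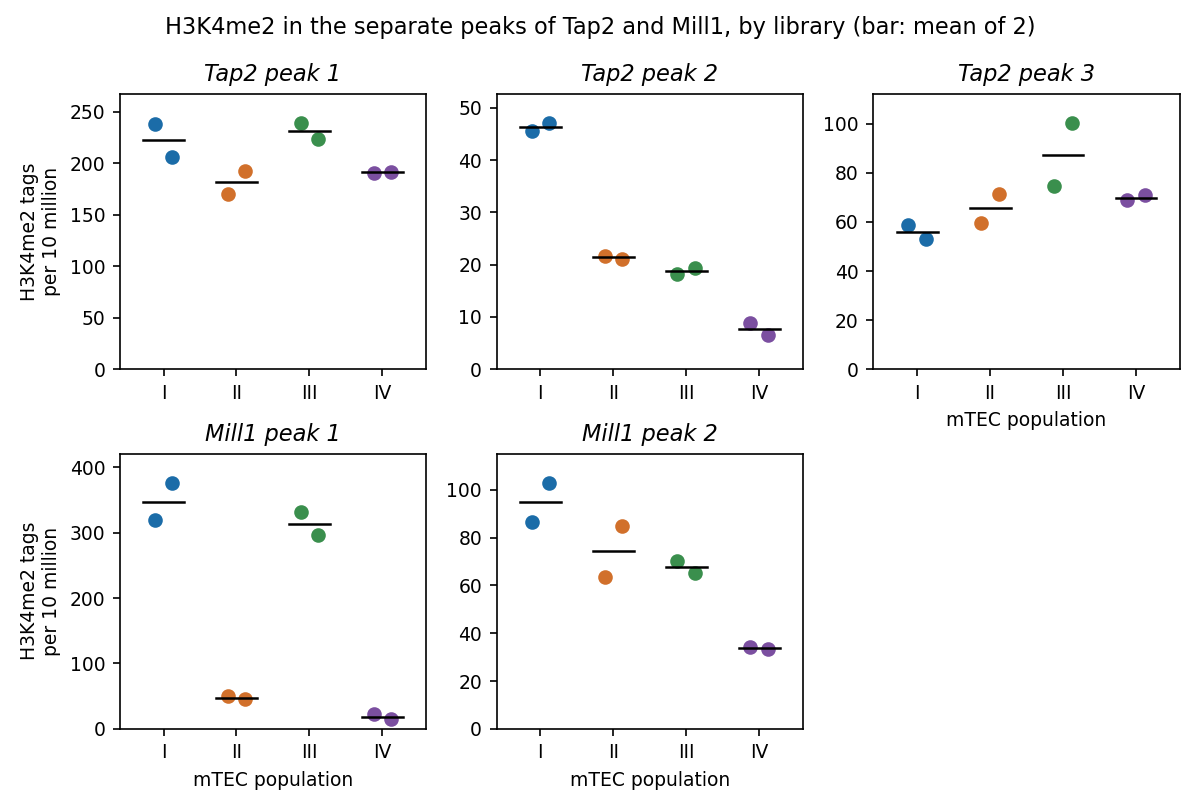
H3K4me2 tags per 10000000 (vertical axes from 0, scaled per peak) in the 3 peaks of Tap2 and the 2 of Mill1, in the 2 libraries (points) of each mTEC population, with their mean (bar). Tap2 peak 2 falls from 46.3 in mTEC-I to 7.69 in mTEC-IV, and Mill1 peak 1 separates mTEC-I and mTEC-III from mTEC-II and mTEC-IV.

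Tapbp encodes tapasin, which bridges the transporter and the empty class I molecule. It had levels of 191 and 244 (mTEC-I), 195 and 213 (mTEC-II), 245 and 242 (mTEC-III) and 218 and 218 (mTEC-IV). The mTEC-I libraries spanned nearly the whole range, and the F test did not call Tapbp (adjusted p = 0.328). Its largest difference, mTEC-II minus mTEC-III, was -0.26 ± 0.13 SE (limma adjusted p = 0.158) and was called with either mTEC-I library left out (adjusted p = 0.0417 and 0.0449), with voom (0.0274) and with library weights (0.0479). Tapbp was also called lower in mTEC-I than in mTEC-III without mTEC-I replicate 2 (-0.35, adjusted p = 0.0286).

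Psmb8, Psmb9 and Psmb10 encode the catalytic subunits of the immunoproteasome. Psmb8 reached 275 and 253 in mTEC-I libraries, 227 and 204 in mTEC-II libraries, 242 and 225 in mTEC-III libraries and 212 and 183 in mTEC-IV libraries. Both mTEC-I libraries lay above all 6 others, and mTEC-II overlapped both mTEC-III and mTEC-IV. Psmb8 was higher in mTEC-I than in mTEC-IV (0.42 ± 0.12 SE, limma adjusted p = 0.0118), a call that ended without mTEC-IV replicate 2 (0.31, adjusted p = 0.141). Psmb8 in mTEC-I minus mTEC-II was 0.29 (adjusted p = 0.0846), and was called without mTEC-I replicate 2 (0.35, adjusted p = 0.0405), with edgeR (0.0490) and with voom (0.0314).

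Psmb9 read 20.1 and 26.4 in the mTEC-I libraries, 44.5 and 28.1 in those of mTEC-II, 17.0 and 24.7 in those of mTEC-III and 5.50 and 8.96 in those of mTEC-IV. Both mTEC-IV libraries lay below all others and both mTEC-II libraries above all others. These values rest on few tags, 13 and 4.5 (mTEC-I), 68.5 and 38 (mTEC-II), 13.5 and 21 (mTEC-III) and 5 and 7.5 (mTEC-IV), in a peak at chr17:34315900-34317316 (mm9) that is centred 7667 bases downstream of its start. The start of Psmb9 lies in the Tap1 peak, so signal there is counted for Tap1. The values here are of the distant peak alone, which is annotated as intergenic. At that peak, Psmb9 was lower in mTEC-IV than in mTEC-I by 1.58 ± 0.43 SE (limma adjusted p = 0.00917), mTEC-II by 2.18 (0.00128) and mTEC-III by 1.42 (0.0186). The mTEC-I call ended without mTEC-IV replicate 1 (1.27, adjusted p = 0.0831), the mTEC-II call without mTEC-II replicate 1 (1.86, 0.0560), and the mTEC-III call without mTEC-III replicate 2 (1.16, 0.152) or mTEC-IV replicate 1 (1.113, 0.135). Psmb9 in mTEC-II minus mTEC-III was 0.76 (adjusted p = 0.223) and was called by edgeR (0.80, 0.0383) and voom (0.0292).

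Psmb10 had levels of 183 and 173 (mTEC-I), 141 and 151 (mTEC-II), 154 and 180 (mTEC-III) and 138 and 176 (mTEC-IV). The mTEC-IV libraries spanned most of the range, and neither the F test (adjusted p = 0.355) nor any pair called Psmb10. Its largest difference was mTEC-I minus mTEC-II, at 0.28 ± 0.15 SE (adjusted p = 0.171).

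Read pair by pair, the calls lay in both directions between mTEC-II and mTEC-IV, there were 0 between mTEC-I and mTEC-III, and they lay in 1 direction in each of the other 4 comparisons. Between mTEC-I and mTEC-II, 3 of 9 genes were higher in mTEC-I (H2-K1, Mill1 and Tap1), where 13.5% of all genes were called higher and 25.4% were called in either direction; with edgeR or voom the members numbered 6, without mTEC-I replicate 2 also 6, and without mTEC-II replicate 2, 1. The median difference was 0.28 over the members and 0.090 over all genes. Between mTEC-I and mTEC-III, where 16.4% of all genes were called higher, 15% lower and 31.4% in all, limma called 0 of 9; 1 had an unadjusted p under 0.05, edgeR, voom and DESeq2 each called 0, and 3 were called without mTEC-I replicate 1 and 1 without mTEC-I replicate 2. The medians were 0.097 and 0.014.

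mTEC-I exceeded mTEC-IV in 5 of 9 genes (H2-K1, Mill1, Tap1, Psmb8 and Psmb9), where 15.2% of all genes were called higher and 35.7% in either direction, and in 3 of 9 without mTEC-IV replicate 2; the medians were 0.30 over the members and 0.020 over all genes. mTEC-II was below mTEC-III in 4 (B2m, Mill1, Tap1 and Tap2), where 10.7% of all genes were called lower and 22.3% in either direction, and in 2 without any 1 of the mTEC-II or mTEC-III libraries; the medians were -0.26 and -0.064. Between mTEC-II and mTEC-IV, Mill1 and Psmb9 were higher in mTEC-II and B2m lower, where 9.43% of all genes were called higher, 16.4% lower and 25.9% in all; 1 member is called without mTEC-II replicate 1. mTEC-III exceeded mTEC-IV in 4 (Mill1, Tap1, Tap2 and Psmb9), where 12.8% of all genes were called higher and 33.5% in either direction, and in 2 without mTEC-III replicate 2 or without mTEC-IV replicate 1; the medians were 0.24 and -0.0054. Psmb9 enters these counts by its distant intergenic peak alone, which rests on few tags and does not hold its start. Pairs that name the same population share its libraries and are not independent.

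**Figure D3:**
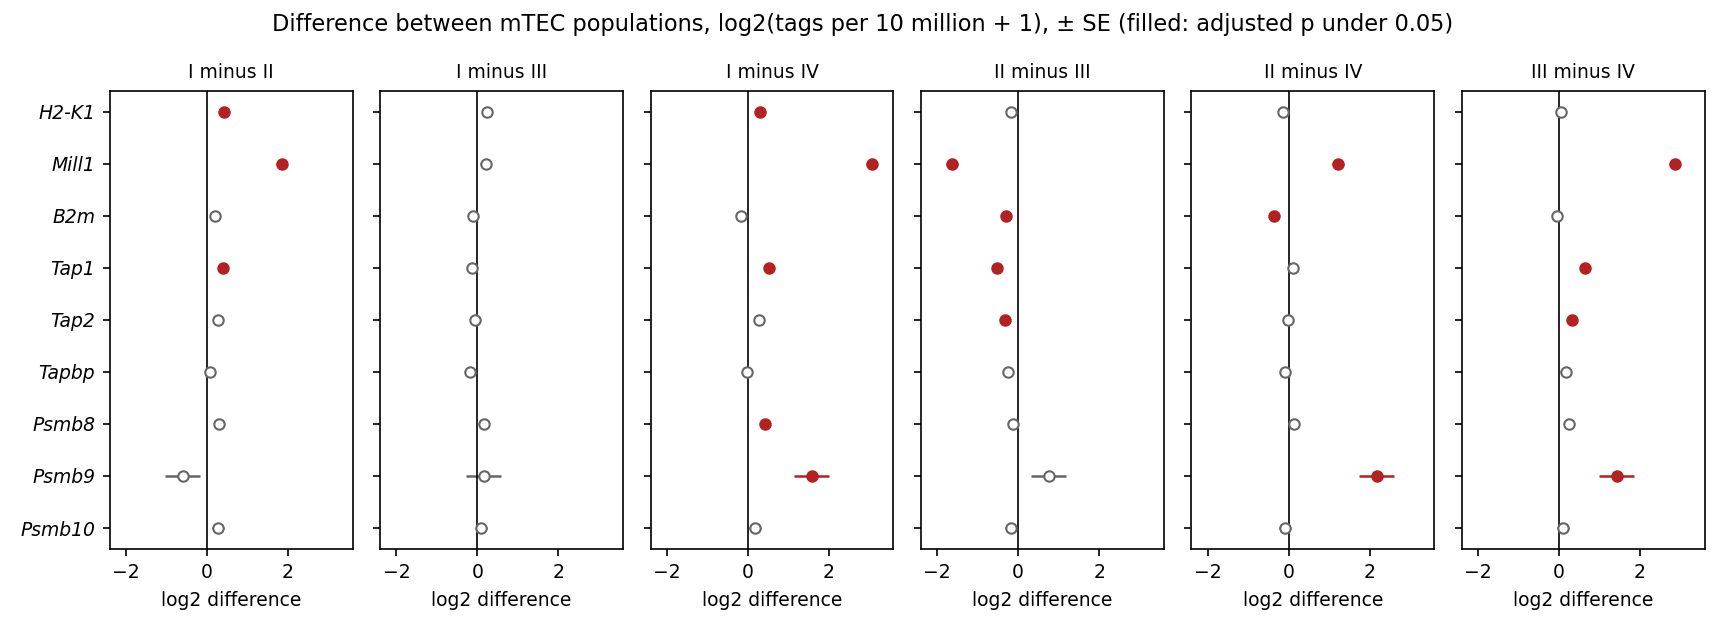
Difference in log2(H3K4me2 tags per 10000000 + 1) between mTEC populations (horizontal axes, 1 panel per pair, first minus second) for the 9 genes with a peak; points are limma estimates, bars are ± SE, and filled points passed an adjusted p of 0.05. Mill1 reaches 3.07 for mTEC-I minus mTEC-IV, and no point is filled for mTEC-I minus mTEC-III.

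The authors' deposited peak lists, 1 per population with both replicates combined, overlapped 6 of the 12 member peaks for mTEC-I (of 7036 peaks listed), 11 for mTEC-II (23949), 10 for mTEC-III (19321) and 8 for mTEC-IV (22757). The Mill1 peak over the start was overlapped in the mTEC-I and mTEC-III lists alone. The Psmb9 peak and the intronic Tap2 peak were overlapped in the mTEC-II list alone, although both signals were also read in mTEC-I, whose list is the shortest. The lists differ in length, so an absent entry is no measure of level.

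Nlrc5, the class I transactivator, had no peak under the rule. A peak at chr8:96956771-96963032 (mm9) was annotated to 9330175E14Rik, a gene that overlaps Nlrc5 in RefSeq GRCm38, and it is given here although it was chosen after its values were seen. It reached 302 and 303 in mTEC-I libraries, 240 and 250 in mTEC-II libraries, 375 and 363 in mTEC-III libraries and 221 and 198 in mTEC-IV libraries. The 4 populations did not overlap, mTEC-III was highest and mTEC-IV lowest. The F test called this peak of 9330175E14Rik (adjusted p = 1.7e-04), and mTEC-III minus mTEC-IV was 0.82 ± 0.097 SE (limma adjusted p = 9.1e-05). The other peak of 9330175E14Rik, intergenic at chr8:96966246-96967896 (mm9), had 80.5 and 47.0 (mTEC-I), 63.3 and 82.2 (mTEC-II), 75.7 and 81.8 (mTEC-III) and 56.6 and 46.6 (mTEC-IV). These populations overlapped, and the F test did not call it (adjusted p = 0.197).

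The other genes of the pathway were read as 4 lists. Of 30 heavy chain and class I-like genes other than the members, 21 were tested and 10 differed by the F test, against 54.2% of all genes. mTEC-I and mTEC-II differed in 5 of 21, each higher in mTEC-I (13.5% of all genes higher, 11.9% lower), and mTEC-II was lower than mTEC-III in 5 and higher in 1 (10.7% and 11.6%). mTEC-I was higher than mTEC-IV in 4 and lower in 1 (15.2% and 20.5%), and mTEC-III higher than mTEC-IV in 5 and lower in 1 (12.8% and 20.8%). mTEC-I was higher than mTEC-III in 1 and lower in 0 (16.4% and 15%), and mTEC-II was higher than mTEC-IV in 1 and lower in 1 (9.43% and 16.4%). The list's median was 0.20 for mTEC-I minus mTEC-II and -0.14 for mTEC-II minus mTEC-III, against 0.090 and -0.064 over all genes. Many of these genes are near-identical copies, with the limit given for H2-K1.

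H2-M2, Azgp1 and Mr1 had the smallest F p-values of this list. Mr1, which presents vitamin B metabolites to T cells, read 279 and 209 in the mTEC-I libraries, 181 and 173 in those of mTEC-II, 314 and 300 in those of mTEC-III and 165 and 193 in those of mTEC-IV. Both mTEC-III libraries lay highest, and mTEC-II overlapped mTEC-IV. Mr1 was higher in mTEC-I than in mTEC-II (0.45 ± 0.14 SE, limma adjusted p = 0.0277) and mTEC-IV (0.43, adjusted p = 0.0221). Without mTEC-I replicate 1 both calls ended (0.24, adjusted p = 0.144, and 0.22, adjusted p = 0.156); the former also ended without any 1 library of mTEC-II (0.109 and 0.167) or mTEC-III (0.0512 and 0.0505), with equal totals in peaks (0.0528) and with cyclic loess (0.0976), and the latter without mTEC-IV replicate 1 (0.32, 0.202). Mr1 was lower in mTEC-II than in mTEC-III (-0.79 ± 0.14 SE, limma adjusted p = 8.7e-04) and higher in mTEC-III than in mTEC-IV (0.78, adjusted p = 4.0e-04). H2-M2 was lowest in mTEC-IV, at 70.4 and 52.0 against 119 to 177 (mTEC-I minus mTEC-IV 1.43 ± 0.17, adjusted p = 8.3e-06). Azgp1, a soluble class I-like protein, was high in mTEC-IV alone, at 81.4 and 83.0 against 1.55 to 10.0 (mTEC-II minus mTEC-IV -3.68 ± 0.58). It passed the filter on low values only through its mTEC-IV libraries, so this difference is a description and its test is no support. Its mTEC-I values, 1.55 and 5.88, are 1 tag each. Azgp1 is also the gene counted above as lower than in mTEC-IV in each pair of this list.

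Of 8 further peptide loading genes, 3 differed by the F test, against 54.2% of all genes. The most in any pair was 3, for mTEC-III and mTEC-IV (33.5% of all genes), with 2 higher in mTEC-III and 1 lower (12.8% and 20.8%). Tapbpl, a relative of tapasin that edits peptides, had 276 and 284 in mTEC-III against 189 and 202 in mTEC-IV (mTEC-III minus mTEC-IV 0.52 ± 0.11 SE, limma adjusted p = 0.00151). Uggt1 went the other way, with 322 and 327 in mTEC-III against 423 and 452 in mTEC-IV (-0.43 ± 0.10 SE, limma adjusted p = 0.00407). Of 8 further proteasome genes 2 differed by the F test, again against 54.2% of all genes: Pomp, an assembly factor, and Psmb11, the thymus-specific subunit of cortical epithelium. Pomp had 303 and 304 in mTEC-IV against 159 to 200 elsewhere (mTEC-I minus mTEC-IV -0.76 ± 0.13, adjusted p = 2.2e-04), a call lost when the sum took peaks within 20 kb of the start alone (-0.023, adjusted p = 0.920). Psme2, a subunit of the interferon-inducible proteasome activator, was lower in mTEC-II than in mTEC-III (-0.36 ± 0.11, adjusted p = 0.0258), a call that ended without mTEC-II replicate 1 (-0.45, 0.0615), mTEC-II replicate 2 (-0.26, 0.271) or mTEC-III replicate 2 (-0.25, 0.208) and with cyclic loess (0.0640).

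Of 18 regulators 17 were tested and 9 differed by the F test, against 54.2% of all genes. mTEC-I was higher than mTEC-II in 7 of 17 and lower in 2 (13.5% and 11.9% of all genes), with a median of 0.21 against 0.090 over all genes. mTEC-I was higher than mTEC-III in 4 and lower in 2 (16.4% and 15%), and higher than mTEC-IV in 4 and lower in 2 (15.2% and 20.5%). mTEC-II was higher than mTEC-III in 0 and lower in 2 (11.6% and 10.7%) and higher than mTEC-IV in 2 and lower in 3 (9.43% and 16.4%), and mTEC-III was higher than mTEC-IV in 1 and lower in 2 (12.8% and 20.8%). Irf9, the DNA-binding subunit of the type I interferon response factor, had levels of 333 and 353 (mTEC-I), 157 and 153 (mTEC-II), 276 and 268 (mTEC-III) and 321 and 321 (mTEC-IV). Both mTEC-II libraries lay far below all others, and Irf9 in mTEC-II minus mTEC-IV was -1.05 ± 0.10 SE (limma adjusted p = 1.2e-06). Ifngr1, a chain of the interferon-gamma receptor, had 346 and 447 in mTEC-I against 155 to 296 elsewhere, and mTEC-I minus mTEC-IV was 1.105 ± 0.15 (adjusted p = 2.4e-05). Creb1, which binds the class I promoter complex, was highest in mTEC-IV, at 531 and 556 against 306 to 466 (mTEC-I minus mTEC-IV -0.76 ± 0.092, adjusted p = 8.3e-06).

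**Figure D4:**
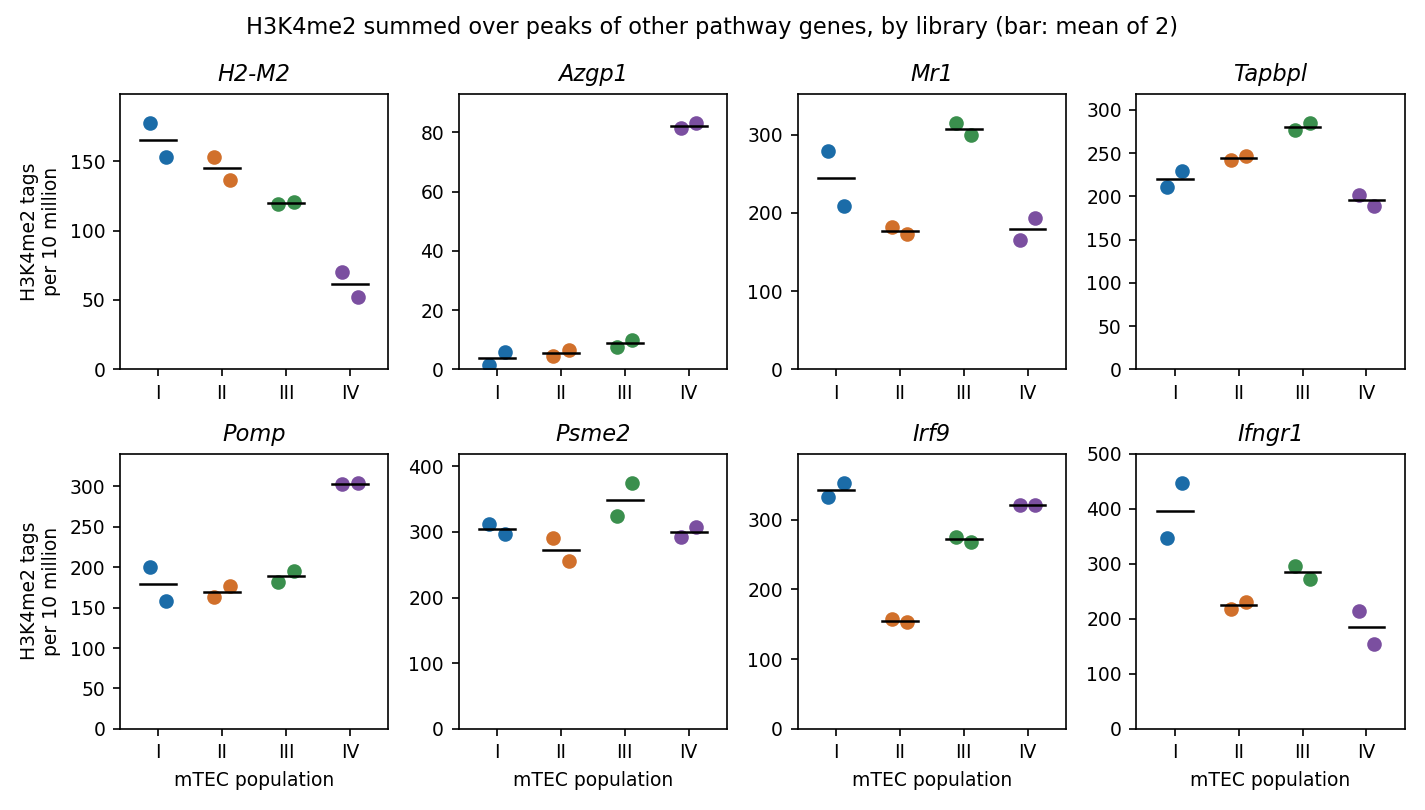
H3K4me2 tags per 10000000 (vertical axes from 0, scaled per gene) for 8 other genes of the pathway, in the 2 libraries (points) of each mTEC population, with their mean (bar). Irf9 is lowest in mTEC-II (157 and 153), Azgp1 is high in mTEC-IV (81.4 and 83.0), and Mr1 is highest in mTEC-III (314 and 300).

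Marker genes of other cell types also differed between the populations, and within each list not all in 1 direction. The sum over the 5 of 12 haematopoietic markers with a peak ran from 103 to 144 in mTEC-I, 135 to 136 in mTEC-II, 173 to 202 in mTEC-III and 373 to 382 in mTEC-IV, with Ptprc, which encodes CD45, at 269 and 265 in mTEC-IV against 30.0 to 48.9. Cd79a, a B cell gene, likewise had 57.7 and 77.1 in mTEC-IV against 6.19 to 12.6. The myeloid markers did not share this order: Itgax had 8.80 and 11.95 in mTEC-IV against 93.4 and 75.95 in mTEC-III, Itgam had means of 14.4 in mTEC-IV and 39.1 in mTEC-III, and Csf1r had means of 18.0 in mTEC-IV and 39.7 in mTEC-II. Cd3e, Cd3g, Cd4, Cd8a, Lyz2 and Spi1 were among those with no peak in the table. The sum over the 4 of 7 fibroblast markers with a peak ran from 480 to 608 in mTEC-I, 309 to 333 in mTEC-II, 198 to 243 in mTEC-III and 407 to 416 in mTEC-IV, and Col1a2, Col3a1 and Lum had none. Pdgfra made up most of that sum in mTEC-I, at 305 and 414, and Dcn had a mean of 87.4 in mTEC-I against 17.6 in mTEC-IV, whereas Pdgfrb had 19.1 in mTEC-I against 127 in mTEC-IV. The sum over the 4 of 5 endothelial markers with a peak ran from 400 to 409 in mTEC-I, 383 to 391 in mTEC-II, 279 to 344 in mTEC-III and 797 to 807 in mTEC-IV, and Tie1 had none. Tek, with a mean of 407 in mTEC-IV against 79.4 in mTEC-I, and Cdh5, with 113 against 8.36, were high in mTEC-IV, whereas Kdr had 222 in mTEC-IV against 243 in mTEC-I and Pecam1 59.7 against 73.2. The part of such cells in the levels of the class I genes was not tested.

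Pearson's r was taken of log2(value + 1) over the 8 libraries, which come in 4 pairs of a population. As a description, the genes with the highest r to each member past the F test are given, other members left out. These were Hyal1 for Mill1 (0.992), Kcnc4 for Tap1 (0.989), Pappa for Psmb9 (0.984), Ctr9 for Tap2 (0.981), Dlec1 for H2-K1 (0.981), 1190003K10Rik for B2m (0.972) and Idnk for Psmb8 (0.963). Among the members the highest value was 0.959, for Tap1 with Tap2, followed by 0.903 for Tap1 with Mill1, and the lowest was -0.708, for B2m with Psmb9. Hyal1, a hyaluronidase, reached 206 and 212 in mTEC-I libraries, 101 and 113 in mTEC-II libraries, 184 and 175 in mTEC-III libraries and 85.2 and 74.1 in mTEC-IV libraries.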

How the data were processed

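The 8 H3K4me2 libraries came from sorted mouse mTEC, 2 per population. The submitters' processing notes name mm9 as build, with Picard 1.108 and bcl2fastq 2.15.0.4 among the tools; the aligner and the handling of duplicate and multiply mapping reads are not given in these sources. Per the file headers, HOMER's annotatePeaks gave the signal of each library in merged peaks, deposited as tags per 10000000 tags of the library, with each peak given to the gene of the nearest start. The authors' deposited peak lists carry a fold over a control, a p-value against that control and a signal, which are the authors' own values. Header totals turned 100% of values into multiples of 0.5 tags, within 0.1 tag. What 0.5 tags stands for is not given, and count tests took each step as 1 count.

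Values of a gene's peaks were summed. limma 3.58.1 (R 4.3.3) was fitted to log2(value + 1) with a variance trend, over all 8 libraries and over all features that reached 10 tags per 10000000 in 2 or more libraries, which left 29469 peaks and 15738 genes, with mitochondrial peaks left out. There were 4 residual degrees of freedom and 11.4 (genes) or 7.75 (peaks) prior degrees of freedom. A fold on this scale understates the change of low values. An F test and 6 pairwise contrasts were made, each adjusted by Benjamini-Hochberg. A count of 0 allows up to 3 tags, from 1.95 (mTEC-II replicate 1) to 17.6 (mTEC-I replicate 2) per 10000000, for counting error only. Tags in peaks were 31.9% to 35.4% of each library. The design allowed edgeR for counts or limma for normalized values, and the table holds the latter; edgeR 4.0.16, voom and DESeq2 1.42.0 on the recovered steps are alternatives.

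All 10 members are named, with the peak nearest the start and the peak of smallest F p-value in full, up to 3 genes of each pathway list by F p-value, and the gene of highest Pearson's r for each member past the F test. The members, the lists and the tests were chosen with earlier results of these data known. The code was tested on simulated data. Promoters came from RefSeq GRCm38.p6, where 8 members matched; coordinates of peaks are mm9 and were not converted.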

Additional observations from a re-analysis of the deposited data

How the results depend on the processing

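Counts of members called kept within 1.5 times their main value under every alternative run other than those named here. Between mTEC-I and mTEC-II the count of genes rose from 3 to 6 with edgeR and to 6 with voom. With 1 library left out in turn, which leaves a population with 1 sample assumed to vary like the others, the counts ranged from 4 to 8 genes and from 5 to 10 peaks by the F test. By pair they ranged from 1 to 6 for mTEC-I minus mTEC-II, 0 to 3 for mTEC-I minus mTEC-III, 3 to 6 for mTEC-I minus mTEC-IV, 2 to 5 for mTEC-II minus mTEC-III, 1 to 3 for mTEC-II minus mTEC-IV and 2 to 4 for mTEC-III minus mTEC-IV. Fewer libraries enter these fits, and the cause of these ranges was not tested. F test calls over all genes moved too, up without either mTEC-I library and down without a library of any other population. No difference of a member that was called changed sign.

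By replicate number, the correlation of deviations lay between -0.0125 and 0.0159 over the 6 pairs of populations. Whether libraries with the same replicate number were prepared together was not tested. With the replicate number as a block the F test called 7 member genes and 8 member peaks, as without it, 8458 of all genes in place of 8528, and the block ended 1 member call, mTEC-I minus mTEC-II at Tap2 peak 2 (1.08, adjusted p = 0.0596).

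Differences that were called neither before nor after changed sign in these cases, on the log2 scale. With TMM scaling Tapbp in mTEC-I minus mTEC-IV became 0.033, Tap2 in mTEC-II minus mTEC-IV 0.071 and B2m in mTEC-III minus mTEC-IV 0.023. With RLE scaling Tap2 in mTEC-II minus mTEC-IV became 0.047. With equal totals in peaks Tapbp in mTEC-I minus mTEC-IV became 0.061 and B2m in mTEC-III minus mTEC-IV 0.039, and mTEC-II minus mTEC-IV became 0.13 for Tap2, 0.037 for Tapbp, 0.042 for Psmb10, 0.0072 for H2-K1, 0.055 for Tap2 peak 1 and 0.035 for Tap2 peak 3. With cyclic loess Tapbp in mTEC-I minus mTEC-II became -0.030, Tap2 in mTEC-II minus mTEC-IV 0.073, B2m in mTEC-III minus mTEC-IV 0.014, and mTEC-II minus mTEC-III -0.11 at Tap2 peak 2 and -0.016 at Mill1 peak 2. With voom Tapbp in mTEC-I minus mTEC-II became -0.014 and Tap2 peak 1 in mTEC-I minus mTEC-III 0.0043.

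With 1 library left out, mTEC-I minus mTEC-III ranged from -0.24 to 0.011 for B2m, -0.013 to 0.21 for Psmb10, -0.096 to 0.42 for Psmb9, -0.27 to 0.024 for Tap1, -0.14 to 0.024 for Tap2, -0.17 to 0.045 for Tap2 peak 1 and -0.35 to 0.00080 for Tapbp. mTEC-II minus mTEC-IV ranged from -0.27 to 0.084 for Psmb10, -0.095 to 0.086 for Tap2, -0.17 to 0.011 for Tap2 peak 1 and -0.22 to 0.031 for Tap2 peak 3. mTEC-III minus mTEC-IV ranged from -0.10 to 0.021 for B2m, -0.022 to 0.14 for H2-K1 and -0.084 to 0.27 for Psmb10. mTEC-II minus mTEC-III at Mill1 peak 2 ranged from -0.088 to 0.32, and Tapbp from -0.092 to 0.26 in mTEC-I minus mTEC-II and -0.19 to 0.16 in mTEC-I minus mTEC-IV.

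The mTEC-I libraries were the shallowest. The differences between them had an SD of 0.835 on the log2 scale over peaks, against 0.264 to 0.384 in the other populations. The part of counting error in this was not tested. The main fit held 1 spread per feature for all populations, so contrasts with mTEC-I had the same SE as the others. With equal totals in peaks the median of all genes in mTEC-II minus mTEC-IV became 0.0552 in place of -0.0771, and the share of all calls that were higher became 57% in place of 36.5%. That share became 40.8% in place of 53% for mTEC-I minus mTEC-II (38.4% with cyclic loess), 54.4% in place of 42.6% for mTEC-I minus mTEC-IV, 62.6% in place of 52.1% for mTEC-II minus mTEC-III and 51.6% in place of 38.1% for mTEC-III minus mTEC-IV.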
